A study of Mus musculus with 6 samples.

Results

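The genes described here are the mouse zinc finger genes whose symbols run from Zfp900 to Zfp999, in RNA from WATs of control and Ntsr2 AKO mice. They were chosen by symbol and by a mean normalized count of at least 10 over the 6 mice. Of the 21456 genes in the table, 34 had such a symbol and 31 of these reached that mean. The 3 left out were Zfp936 with a mean of 0.307, Zfp941 with 3.17 and Zfp957 with 6.16. The lowest kept were Zfp964 with a mean of 52.1 and Zfp951 with 67.2, so no member lay close to the limit. Zfp949 was singled out because its difference between the genotypes was already known from these data, and its values are given as a description without a test.

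Adipose RNA was sequenced from 3 control mice, whose Ntsr2 alleles were flox/flox, and from 3 Ntsr2 AKO mice, each group numbered 3, 4 and 5. Ntsr2 encodes a receptor for the peptide neurotensin. The Ntsr2 AKO mice carried the same floxed alleles together with Adipoq-Cre, in which the adiponectin promoter drives the recombinase in adipocytes, so other cells of the tissue keep the gene. All mice were on a chow diet, and their age, sex and fat depot are not given for this experiment in the sources used here. The control mice carried no Cre, and the effect of the recombinase itself cannot be told apart from that of the deletion.

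Zinc finger proteins of the C2H2 class hold a row of short loops, the fingers, each folded around a zinc ion by a pair of cysteines and a pair of histidines, and the row as a whole reads a stretch of DNA. Many also carry a KRAB box near their start. This box binds the corepressor TRIM28, which brings in the histone methyltransferase SETDB1 and heterochromatin proteins and silences the chromatin around the bound site. The family has grown by local gene duplication, so its genes lie in clusters and resemble each other, and many members bind and silence transposable elements. Zfp932 and its close relative Gm15446 are known repressors of endogenous retroviruses.

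All 31 genes were found in GENCODE M21 on the GRCm38 (mm10) assembly. Zfp939 was annotated as a transcribed pseudogene and the other 30 had a coding sequence. In the proteins translated from these, a finger was counted where a cysteine, 2 residues, a cysteine, 12 residues, a histidine, 3 to 5 residues and a histidine followed each other. The median was 10.5 fingers, and 29 proteins had 3 or more. Zfp945 had the most with 18, followed by Zfp932 and Zfp948 with 15 each. Zfp935, of 150 residues, had 0 and Zfp956 had 6. A KRAB box start was found in 29 of the 30 proteins, all but Zfp956. Zfp949 had 11 fingers and a KRAB box in 603 residues.

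The stretches below show the 2 parts that define the family in the 3 genes on which the results turn, Zfp949, Zfp963 and Zfp948. They were read from the GRCm38 reference 5′ to 3′ on the coding strand. In the KRAB stretches, capitals mark the codons of the fixed residues of the box start. In the fingers, taken from the middle of each row, capitals mark the codons of the zinc-binding cysteines and histidines.
Zfp949 KRAB box (exon 4 of 6, chr9:88567171-88567269, plus strand): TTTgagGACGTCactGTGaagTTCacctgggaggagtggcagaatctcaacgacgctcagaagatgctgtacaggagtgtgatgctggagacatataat
Zfp963 KRAB box (exon 2 of 4, chr8:69744477-69744575, minus strand): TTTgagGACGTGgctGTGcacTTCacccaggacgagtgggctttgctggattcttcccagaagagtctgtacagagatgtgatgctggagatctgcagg
Zfp948 KRAB box (exon 5 of 6, chr17:21584792-21584890, plus strand): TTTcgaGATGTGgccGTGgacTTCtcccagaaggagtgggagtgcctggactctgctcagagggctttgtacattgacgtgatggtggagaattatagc
Zfp949 finger 6 (exon 6 of 6, chr9:88569690-88569752, plus strand): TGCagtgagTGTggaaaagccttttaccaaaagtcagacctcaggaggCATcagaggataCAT
Zfp963 finger 4 (exon 4 of 4, chr8:69742932-69742994, minus strand): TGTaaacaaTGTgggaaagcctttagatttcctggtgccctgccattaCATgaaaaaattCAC
Zfp948 finger 8 (exon 6 of 6, chr17:21587862-21587924, plus strand): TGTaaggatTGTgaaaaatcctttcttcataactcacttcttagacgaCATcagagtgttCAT

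In these 3 genes the KRAB box lay in an earlier exon than the finger shown, which was in the last exon. Over the 435 pairs of proteins, the identity ranged from 26.9% to 95.4% with a median of 44.5%. It was taken over the aligned residues only, with gaps left out. The most alike were Zfp955a and Zfp955b at 95.4%, then Zfp942 and Zfp944 at 79.8%. Zfp949 had no such close relative among them. Its identity with the others ranged from 28.4% to 55.4%. By this measure the nearest were Zfp931 at 55.4% and Zfp930 at 52.0%. These values cover 298 and 437 aligned residues, while Zfp949 has 603.

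The recovered reads numbered 60405373 to 66098226 per control mouse and 54085088 to 56268725 per Ntsr2 AKO mouse, and each control mouse was sequenced more deeply than each Ntsr2 AKO mouse. The deleted gene Ntsr2 had normalized counts of 83.8, 64.0 and 153 in control mice and 3.10, 8.29 and 0 in Ntsr2 AKO mice. All 8 adipocyte markers were present in every mouse, and their summed level overlapped between the genotypes, with 2308660 to 3355010 in control mice and 2667230 to 2875100 in Ntsr2 AKO mice. The 8 skeletal muscle markers summed to 391 to 1430 in 3 mice (control 3, control 4 and Ntsr2 AKO 3), but to 2458190 in control 5, 79179 in Ntsr2 AKO 4 and 172627 in Ntsr2 AKO 5, with Ckm, Myh4, Actn3, Pvalb and Myh1 at 0 in at least 1 mouse. The 4 brown adipocyte markers summed to 2278 to 4485 in control mice and 4733 to 6689 in Ntsr2 AKO mice. Most of that sum was Cidea, and Ucp1 was at 0 in control 3. The 4 mesothelial markers summed to a lower level in Ntsr2 AKO mice, 36.3 to 75.9 against 105 to 413. Most of that sum was Krt19, with means of 210 in control and 56.0 in Ntsr2 AKO mice. The groups overlapped for Msln, Upk3b and Wt1, each at 0 in at least 1 mouse, and Wt1 was above 0 only in Ntsr2 AKO 5. The 4 epithelial markers also summed to a lower level, 34.2 to 39.5 against 41.2 to 235, the highest in control 3. Each of these 4 genes on its own overlapped between the groups, with Epcam, Krt8 and Krt18 at 0 in at least 1 mouse. The part of these differences in the results that follow was not tested.

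The zinc finger genes were expressed at modest levels. They took 0.0192% to 0.0290% of the reads of a mouse, and a member had between 8 and 2383 reads in a mouse. Per kb of exon, their median mean level was 129 normalized counts, above the 97.3 of the 293 other numbered Zfp genes with a length and below the 191 of all 15141 tested genes with a length. These differences in level were not tested. The range among members was wide. Zfp949 had the highest mean level over the 6 mice with 354 per kb, followed by Zfp948 with 297, Zfp932 with 277 and Zfp931 with 257. At the low end were Zfp964 with 6.85, Zfp934 with 12.9, Zfp951 with 14.2 and Zfp940 with 14.4 per kb. Within a genotype the members varied moderately between mice. The coefficient of variation had a median of 13.4% in control mice, with a range of 1.41% to 70.9%, and a median of 13.5% in Ntsr2 AKO mice, with a range of 1.27% to 53.3%.

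Zfp949 was the member with the largest difference between the genotypes. Its normalized counts were 652, 775 and 750.2 in control mice and 2097, 2470.0 and 1983 in Ntsr2 AKO mice. All 3 Ntsr2 AKO mice lay well above all 3 control mice. The means were 726 ± 65.2 in control and 2183 ± 255 in Ntsr2 AKO mice (SD, n = 3 each), a log2 fold change of 1.59 ± 0.14 (SE) or a 3.0-fold higher level. In tissue RNA, a change in the number of cells that express a gene and a change in the RNA per cell cannot be told apart. Among the 16157 genes tested, it took place 192 when ordered by log2 fold change from the highest. The second largest value among the members, that of Zfp964, was lower by 0.51 on the log2 scale.

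The place of Zfp949 among the members differed with the genotype. In control mice its level per kb was 177 ± 15.9 (SD, n = 3), the seventh highest, behind Zfp948, Zfp931, Zfp932, Zfp943, Zfp954 and Zfp952. Its values of 159 to 189 per kb in single control mice overlapped those of its neighbours in that order, Zfp952 (180 to 204 per kb) and Zfp938 (159 to 180 per kb). In Ntsr2 AKO mice it was the highest with 531 ± 62.0 per kb (SD, n = 3), and its lowest mouse, at 482 per kb, was above the highest of the next gene, Zfp932, at 342 per kb. Zfp948 held the first place in control mice with 350.3 ± 26.2 per kb and the fifth in Ntsr2 AKO mice with 244 ± 10.7 per kb. Of the summed normalized counts of the 31 genes, Zfp949 made up 5.25% to 6.47% in control mice and 12% to 15.3% in Ntsr2 AKO mice.

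**Figure D1:**
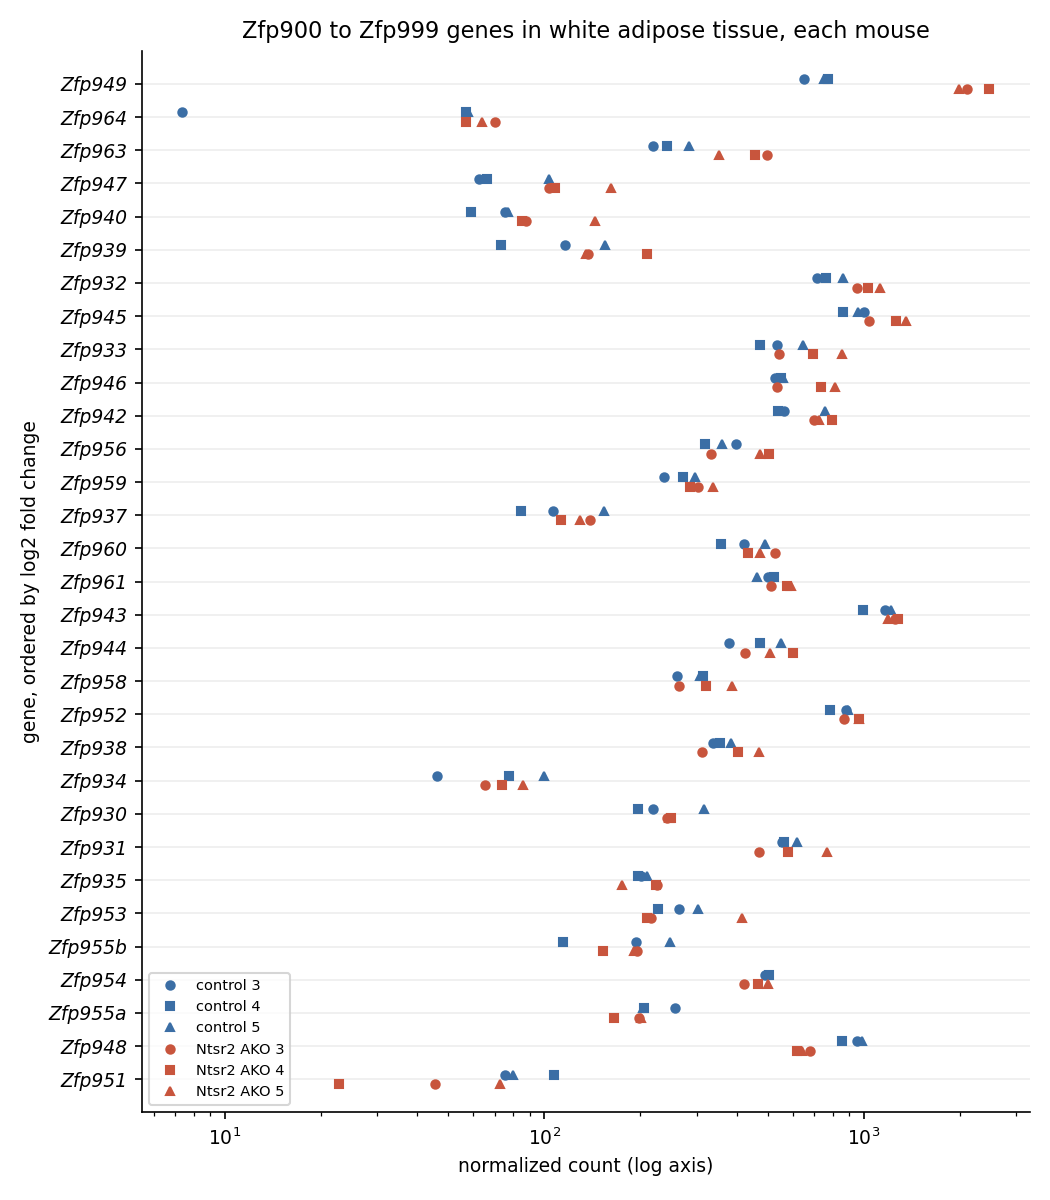
Normalized count (x axis, logarithmic) of each of the 31 zinc finger genes (y axis, ordered by log2 fold change) in the 3 control mice (blue) and the 3 Ntsr2 AKO mice (red), with 1 point for each mouse. Zfp949 at the top lies at 652 to 775 in control mice and 1983 to 2470.0 in Ntsr2 AKO mice, while the groups overlap for 23 of the 31 genes.

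The other 30 genes showed smaller differences, mostly toward higher levels in Ntsr2 AKO mice. Of these, 26 had a log2 fold change above 0 (86.7%), compared with 49.0% of all genes tested and 64.9% of the 296 other numbered Zfp genes. Their median log2 fold change was 0.16, or 0.17 with Zfp949 counted, against -0.01 for all genes and 0.11 for the other numbered Zfp genes. These shares and medians are descriptions, since genes are not replicates. Without control 5, the mouse with the highest muscle transcripts, the median over the 30 genes was 0.27. Without Ntsr2 AKO 5, 20 of the 30 genes had a log2 fold change above 0 instead of 26, and the number was also 20 without the 3 mice with raised muscle transcripts.

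With limma and Benjamini-Hochberg adjustment over all 16157 genes, 0 of the 30 genes other than Zfp949 passed an adjusted p of 0.05, where 0.00619% of all genes did. At an unadjusted limma p under 0.05 there were 4 of the 30 (13.3%), namely Zfp948, Zfp963, Zfp932 and Zfp945, against 8.35% of all genes. The number was 2 without control 3, control 4 or Ntsr2 AKO 4, 3 without Ntsr2 AKO 5, and 5 without control 5 or Ntsr2 AKO 3. The share of all genes in these fits is not given here, so the numbers cannot be set against it. On the recovered reads, edgeR called 0 of the 30 after adjustment and 4 at an unadjusted p under 0.05, against 1323 of the 16157 genes. DESeq2 called 1 of the 30 after adjustment, Zfp948, where 1.5% of all genes were called. At an unadjusted DESeq2 p under 0.05 there were 4 of the 30, against 1680 of the 16157 genes.

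For 7 of these 30 genes the groups did not overlap. The 3 Ntsr2 AKO mice all lay above the 3 control mice for 4 (13.3%), namely Zfp963, Zfp940, Zfp932 and Zfp945, against 6.82% of all genes tested. They all lay below for 3 (10%), namely Zfp955a, Zfp948 and Zfp951, against 8.16% of all genes. Among the other numbered Zfp genes, 44 of 296 (14.9%) were separated toward higher and 10 (3.38%) toward lower levels in Ntsr2 AKO mice. At an unadjusted limma p under 0.05, 18 of these 296 were higher (6.08%) and 5 lower (1.69%), against 3.08% and 5.27% of all genes. With limma 0 of the 296 passed the adjusted threshold, while DESeq2 called 2, where it called 1.5% of all genes.

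**Figure D2:**
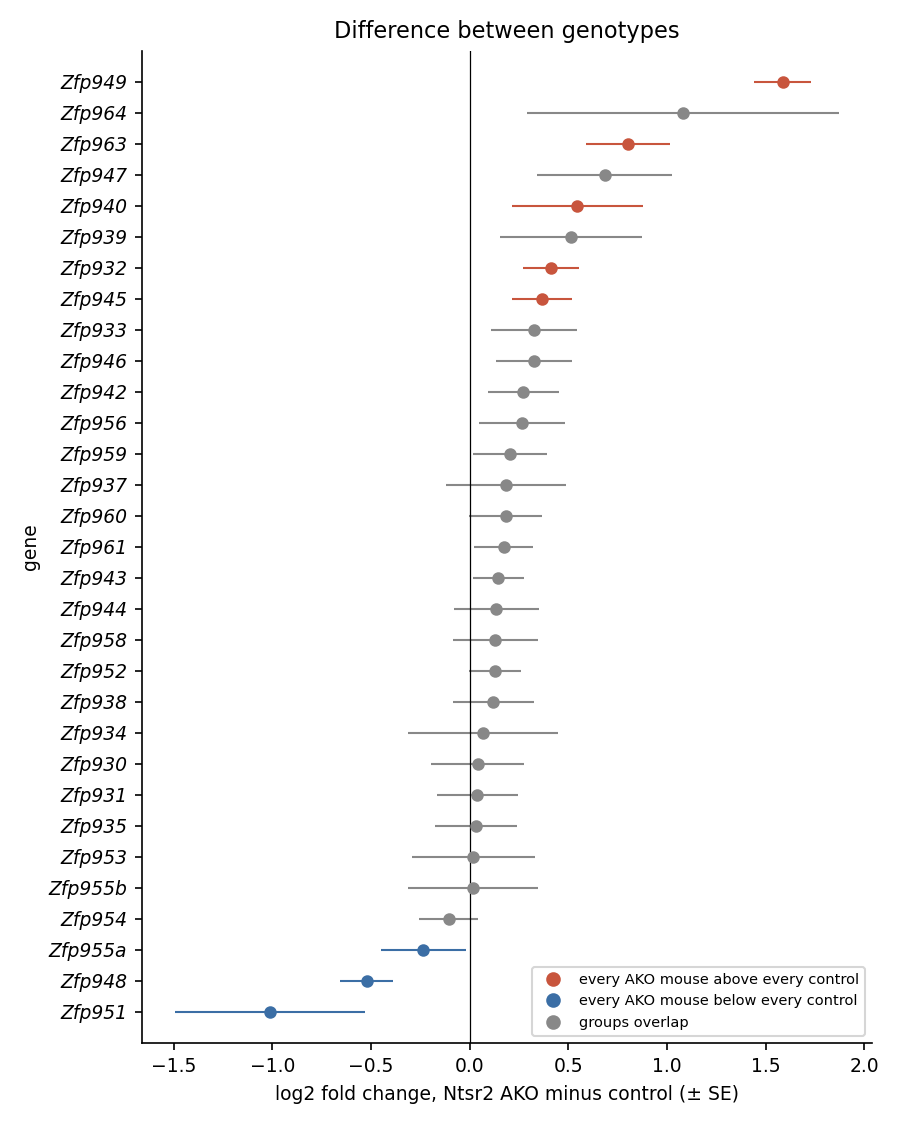
Log2 fold change of Ntsr2 AKO minus control (x axis) of each gene (y axis), with points for the fitted value, bars for ± SE and colours for whether the 3 mice of each group overlap. The points run from -1.01 for Zfp951 to 1.59 for Zfp949, with 27 of 31 to the right of 0.

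Zfp963, a KRAB zinc finger gene on chromosome 8, had the largest fold change after Zfp949 among the genes for which all Ntsr2 AKO mice were above all control mice. Its normalized counts were 218, 242 and 284 in control mice and 496, 457 and 352 in Ntsr2 AKO mice. The means of 248 ± 33.3 and 435 ± 74.6 (SD, n = 3 each) gave a log2 fold change of 0.80 ± 0.21 (SE). This did not pass limma's adjusted threshold (unadjusted p = 0.0073, adjusted p = 0.52), and the adjusted p ranged from 0.055 with DESeq2 to 1 over the alternatives. Of the 100-base stretches of its transcripts, 36.1% also occur in the overlapping gene Gm20422, which had at most 8.29 normalized counts in any mouse.

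Zfp948, with 15 fingers and a KRAB box, differed in the opposite direction. Its normalized counts were 952, 851 and 984 in control mice and 676, 620 and 642 in Ntsr2 AKO mice. All Ntsr2 AKO mice were lower, and neither group was widely spread. The means of 929 ± 69.4 and 646 ± 28.4 (SD, n = 3 each) gave a log2 fold change of -0.52 ± 0.13 (SE). In the limma fit the unadjusted p was 0.0062 and the adjusted p was 0.52, while DESeq2 gave an adjusted p of 0.040, the lowest of the alternatives, which ranged up to 1. None of its 100-base stretches occurs in another gene.

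Zfp932 and Zfp945 were among the members with the most fingers and were both slightly higher in Ntsr2 AKO mice. Zfp932 had 715, 760.3 and 859 normalized counts in control mice and 954, 1030.3 and 1120.3 in Ntsr2 AKO mice, giving a log2 fold change of 0.41 ± 0.14 (SE; limma unadjusted p = 0.023, adjusted p = 0.56). It shares 18.5% of its 100-base stretches, mainly with Gm15446, whose counts were 354, 412 and 568 in control and 531, 693 and 646 in Ntsr2 AKO mice, so the reads of both cannot be fully told apart. Zfp945 had 1003, 857 and 956 normalized counts in control mice and 1035, 1265 and 1354 in Ntsr2 AKO mice, giving a log2 fold change of 0.37 ± 0.15 (SE; limma unadjusted p = 0.047, adjusted p = 0.59). It shared no stretch with another gene. The lowest Ntsr2 AKO mouse was only just above the highest control mouse for Zfp945, and further apart for Zfp932.

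Several of the larger fold changes belonged to genes with few reads. Zfp964 had 7.36, 56.7 and 57.6 normalized counts in control mice and 70.2, 57.0 and 63.8 in Ntsr2 AKO mice. Its groups overlapped, and its log2 fold change of 1.08 ± 0.79 (SE) rested on control 3, in which it had 8 reads. Without that mouse the log2 fold change was 0.15. Zfp951, the lowest of the differences, had 75.5, 107 and 79.6 in control mice and 45.4, 22.8 and 72.9 in Ntsr2 AKO mice, giving a log2 fold change of -1.01 ± 0.48 (SE; limma adjusted p = 0.62). Its value was -0.58 without Ntsr2 AKO 4.

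Of the remaining larger differences, Zfp947 had 62.6, 66.0 and 104 normalized counts in control mice and 103, 108 and 162 in Ntsr2 AKO mice, and only the highest control mouse overlapped the Ntsr2 AKO mice (log2 fold change 0.68 ± 0.34, SE). Zfp940 had 75.5, 58.8 and 76.7 in control mice and 87.7, 85.0 and 144 in Ntsr2 AKO mice (0.55 ± 0.33, SE). The pseudogene Zfp939 had 116, 73.2 and 155 in control mice and 137, 209 and 135 in Ntsr2 AKO mice (0.51 ± 0.36, SE). For these 3 genes the limma adjusted p was 0.62, 0.69 and 0.72, and the spread between mice was large beside the difference.

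At the other end of the order, few members were lower in Ntsr2 AKO mice. After Zfp951 and Zfp948 came Zfp955a with a log2 fold change of -0.24 ± 0.21 (SE) and Zfp954 with -0.11 ± 0.15 (SE). Zfp955a had 257, 205 and 204 normalized counts in control mice and 198, 166 and 200.4 in Ntsr2 AKO mice, which did not overlap but were close. Its near-copy Zfp955b had 193, 115 and 247 in control mice and 195, 152 and 190.3 in Ntsr2 AKO mice, and its groups overlapped (0.02 ± 0.33, SE). Of the 100-base stretches of Zfp955a, 26.5% occur in Zfp955b, and of those of Zfp955b, 15.8% occur in Zfp955a, so their counts are uncertain. Zfp953 had the same small value as Zfp955b, 0.02 ± 0.31 (SE).

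Sharing of sequence with other genes was uneven over the members. Zfp949 and 10 others had no 100-base stretch in common with another annotated gene, and 15 had under 1%. In 7 members the share was 10% or more. It was highest in Zfp935, whose stretches lie almost wholly in the overlapping gene Gm49359 (99.2%), and in Zfp960, which shares 68.3%, mainly with Zfp97. The log2 fold change was 0.03 for Zfp935 and 0.18 for Zfp960. Reads from shared stretches cannot be assigned to a single gene, so these values are uncertain. The median log2 fold change was 0.15 over the 15 members with under 1% shared and 0.18 over the 7 with 10% or more.

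**Figure D3:**
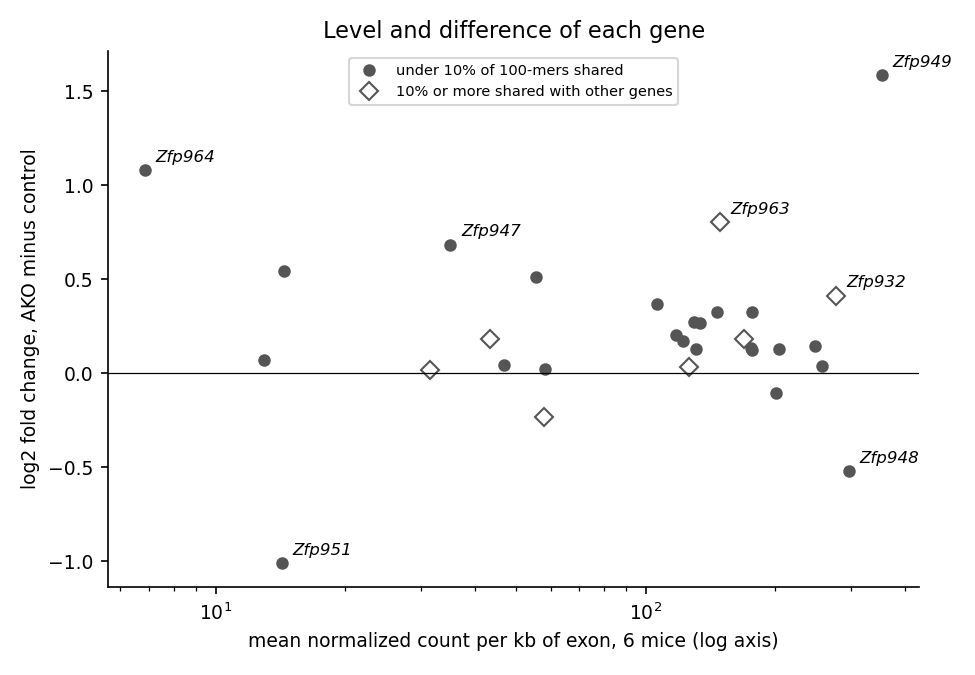
Mean normalized count per kb of exon over the 6 mice (x axis, logarithmic) and log2 fold change of Ntsr2 AKO minus control (y axis) of the 31 genes, with open diamonds for the 7 that share 10% or more of their 100-base stretches with other genes. Zfp949 is highest on both axes, while Zfp964 and Zfp951, with 6.85 and 14.2 per kb, lie at the low end of expression.

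The genes lay on 10 chromosomes, with 12 on chromosome 17 and 5 on chromosome 8. Zfp949 was the only one on chromosome 9. On chromosome 17, 7 members lay between positions 21567008 and 22867134 (GRCm38), a stretch of 1.30 Mb. From left to right they were Zfp948, Zfp942, Zfp943, Zfp947, Zfp944, Zfp946 and Zfp945. Zfp948, at the left edge of this run, was the only one of the 7 with a log2 fold change under 0. The other 6 ranged from 0.14 for Zfp944 to 0.68 for Zfp947, and the median of the 7 was 0.27. Zfp948 was also the least alike in protein, with 50.5% to 55.3% identity to the other 6, which shared 63.2% to 79.8% among themselves.

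On chromosome 8, Zfp930, Zfp964 and Zfp963 lay within 0.541 Mb, between positions 69209038 and 69749970. Their log2 fold changes were 0.04 for Zfp930, 1.08 for Zfp964 and 0.80 for Zfp963. Zfp930 had 218, 197 and 316 normalized counts in control mice and 243, 249 and 245 in Ntsr2 AKO mice, so the groups overlapped. Zfp963 and Zfp964 were 64.9% identical in protein, and Zfp930 was 45.3% and 48.6% identical to them.

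Zfp949 itself spans chr9:88548020-88571061 on the plus strand (ENSMUSG00000032425), with 5 annotated transcripts. The 3 nearest tested genes on each side did not show its pattern. Snhg5, a host gene of small nucleolar RNAs, ends 25.1 kb before it and had 1555, 2308 and 1934 normalized counts in control mice and 1878, 1961 and 1758 in Ntsr2 AKO mice, with a log2 fold change of -0.03 ± 0.16 (SE). Trim43a, which starts 9.83 kb after it, was barely expressed, with at most 19.3 normalized counts in any mouse and a log2 fold change of -0.08 ± 0.87 (SE). Further out, Snx14, which encodes a sorting nexin, had 0.13 ± 0.13 (SE) and Bcl2a1d, of the Bcl2 family, had -0.73 ± 0.64 (SE).

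The groups of the 2 other neighbours did not overlap, with all Ntsr2 AKO mice lower, as was the case for 8.16% of all genes tested. Neither passed limma's adjusted threshold. Syncrip, which encodes an RNA-binding protein, had 9496, 9319 and 9140.1 normalized counts in control mice and 8608, 7755 and 8005 in Ntsr2 AKO mice, giving a log2 fold change of -0.20 ± 0.10 (SE; limma adjusted p = 0.63). The transcript 9430037G07Rik had 191, 124 and 172 in control mice and 111, 97.4 and 88.0 in Ntsr2 AKO mice, giving a log2 fold change of -0.69 ± 0.28 (SE; limma unadjusted p = 0.041, adjusted p = 0.59).

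**Figure D4:**
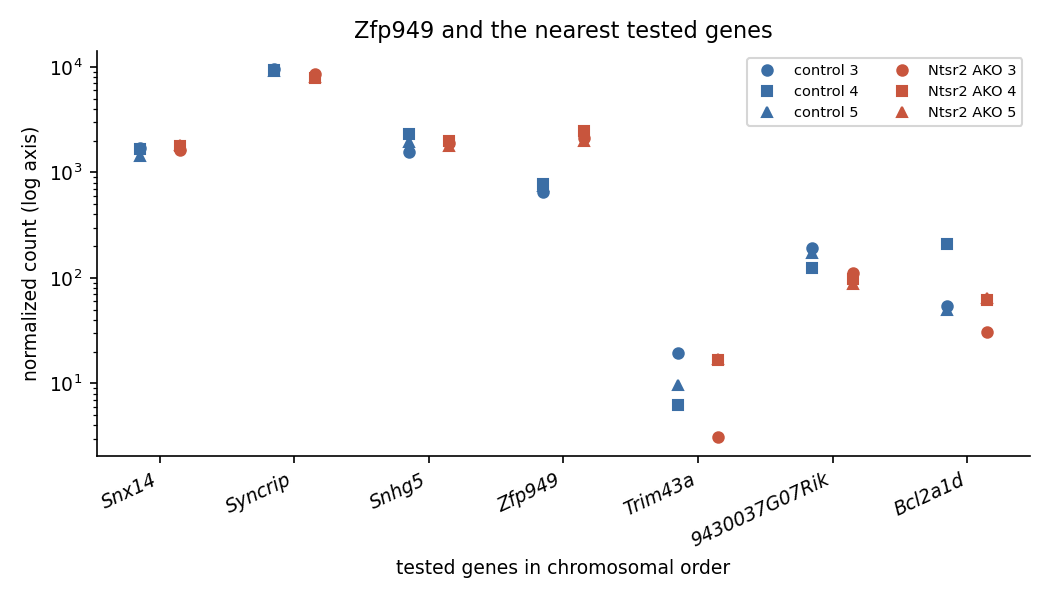
Normalized count (y axis, logarithmic) of Zfp949 and the 3 nearest tested genes on each side (x axis, in chromosomal order) in each control mouse (blue) and Ntsr2 AKO mouse (red). Zfp949 is higher in all Ntsr2 AKO mice, whereas Syncrip and 9430037G07Rik are lower in all of them and the other 4 genes overlap.

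The mice were not uniform in the level of the zinc finger genes. For each mouse, the median over the 31 genes of the log2 value, centred on the mean of each gene, was -0.15, -0.22 and 0.06 in control mice and -0.03, 0.12 and 0.24 in Ntsr2 AKO mice. The groups overlapped, since control 5 was above Ntsr2 AKO 3. The same median over all genes lay within 0.02 of 0 in each mouse. Of the 31 genes, 12 had their highest value in Ntsr2 AKO 5 and 7 in Ntsr2 AKO 4, while 12 had their lowest in control 4 and 10 in control 3. Control 5, Ntsr2 AKO 4 and Ntsr2 AKO 5, the 3 mice with raised muscle transcripts, thus had the 3 medians above 0, and the part of muscle in this order was not tested.

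The genes that KRAB zinc finger proteins work with were examined as a list of 35, of which 33 were tested. These encode the corepressor TRIM28, its methyltransferase SETDB1, heterochromatin proteins, subunits of the NuRD deacetylase complex and DNA methylation factors. With limma 0 of 33 passed the adjusted threshold, where 0.00619% of all genes did. After adjustment edgeR called 0 of 33, where it called 0 of all 16157 genes. DESeq2 also called 0 of 33, where it called 1.5% of all genes. At an unadjusted p under 0.05, limma, edgeR and DESeq2 each gave 2. With limma both were lower in Ntsr2 AKO mice, where 5.27% of all genes were lower and 3.08% higher at that p. The share of 6.06% compares with the 8.35% of all genes with limma, and with 1323 of 16157 genes with edgeR and 1680 with DESeq2. The groups did not overlap for 1 gene toward higher (3.03%) and 3 toward lower levels (9.09%), against 6.82% and 8.16% of all genes. There were 13 log2 fold changes above 0 and 20 below, with a median of -0.07. The number at an unadjusted limma p under 0.05 was 5 without Ntsr2 AKO 3 and 1 without Ntsr2 AKO 4 or Ntsr2 AKO 5. It was 3 without control 4 and 2 without control 3 or control 5. The share of all genes in these fits is not given here, so the numbers cannot be set against it.

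The corepressor gene Trim28 had 4205, 3901 and 4566 normalized counts in control mice and 3844, 3762 and 3017 in Ntsr2 AKO mice. Its groups did not overlap, with a log2 fold change of -0.26 ± 0.14 (SE; limma unadjusted p = 0.10). Setdb1 had 1665, 1522 and 1872 in control mice and 1931, 1770.4 and 1801 in Ntsr2 AKO mice, which overlapped (0.13 ± 0.12, SE). The lowest p in the list belonged to Daxx, which encodes a chaperone for histone H3.3. It had 2991, 2873 and 2452 in control mice and 2113, 1618 and 1457 in Ntsr2 AKO mice, all lower, a log2 fold change of -0.69 ± 0.17 (SE; limma unadjusted p = 0.0051, adjusted p = 0.52). Gatad2a, of the NuRD complex, had 3020.6, 2966 and 2502 in control mice and 2519, 1944 and 1579 in Ntsr2 AKO mice. One Ntsr2 AKO mouse was above the lowest control mouse, and the log2 fold change was -0.51 ± 0.19 (SE; limma unadjusted p = 0.032, adjusted p = 0.57).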

How the data were processed

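RNA from adipose tissue was extracted with TRIzol, enriched for mRNA and sequenced, and per the labels and the methods reads were aligned with HISAT2 (mm10) and quantified with StringTie. The table that the authors deposited holds normalized counts as a signal, where each gene's read count is divided by a size factor of the mouse. Each column came out in whole multiples of its lowest value (100% within 0.001), and whole reads were recovered from these. Whether reads were counted by strand is not given in the sources used here.

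The 16157 genes whose mean was at least 10 were tested on the log2(normalized count + 1) scale with limma 3.58.1 (lmFit, eBayes with trend) in R 4.3.3, over 3 control and 3 Ntsr2 AKO mice without covariates, two-sided, with Benjamini-Hochberg adjustment over all genes. Fold changes are differences of mean log2 values on that scale, and for low genes they can differ from the ratio of the mean counts in either direction. No permutation test of 3 against 3 mice goes below a two-sided p of 0.1. The limma p-values set each difference between the groups against the spread between these mice, with variances moderated over all genes tested. Alternatives were pseudocounts of 0.1 and 5, no filter, a mean of at least 50, quantile normalization, no trend, a replicate block, edgeR 4.0.16 and DESeq2 1.42.0 on the recovered reads, and omission of each mouse. The scripts were tested on simulated data.

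Positions, exon lengths, coding sequences and shared 100-base stretches came from GENCODE M21 (GRCm38), in which 19722 of the 21456 gene names matched a single locus. The KRAB box start was a phenylalanine or tyrosine, any residue, an aspartate or glutamate, a valine or leucine, any residue, a valine, isoleucine, leucine or methionine, any residue and a phenylalanine within the first 200 residues. This pattern was widened after the proteins had been viewed. The members, lists and rules were chosen with earlier results of these data known. Genes were named by rule: Zfp949, the 6 largest rises and 6 largest falls, the 4 highest and 4 lowest levels per kb, those nearest the limit of 10, members whose groups do not overlap, the most and fewest fingers, the proteins most like Zfp949, its nearest tested genes, and of the KRAB partners Trim28, Setdb1 and those with an unadjusted p under 0.05. Members named beyond this rule, for their position or shared sequence, were chosen after their values were seen. Over the same replicate numbers, the deviations of control and Ntsr2 AKO mice correlated by 0.45, -0.24 and 0.41. Over unlike numbers they correlated by -0.52 to 0.26, so these values do not settle whether the numbers pair mice. The labels name no pairing, and the main fit took none, with the replicate block as an alternative. The summed marker lists for macrophages (without Adgre1, which was absent), lymphocytes, endothelium, lymphatic endothelium, progenitors and Schwann cells overlapped between the groups. The lymphocyte sum was 1159 in control 3 and 107 to 291 in the other mice, and its part in the results was not tested.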

Additional observations from a re-analysis of the deposited data

How the results depend on the processing

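There were 3 mice per group, and members with few reads, such as Zfp964 with 8 in control 3, also carry counting error. DESeq2 on the recovered reads called 2 members and 220 genes in all, where limma called 0 members and 1 gene, edgeR called 0 genes and every other alternative called 0 members and at most 1 gene. One of the 2 was Zfp949, whose difference was known beforehand and whose call is therefore no test, and the other was Zfp948. The cause was not tested. Over the fits that left out 1 mouse, the median log2 fold change of the members ranged from 0.15 to 0.27, Zfp949 from 1.49 to 1.65, the members above 0 from 21 to 27, and the members and KRAB partners past the adjusted threshold stayed at 0. With a replicate block, 0 members and 0 genes in all were called, the median was 0.17 and Zfp949 was at 1.59. In that fit, 3 of the 30 members other than Zfp949 had an unadjusted limma p under 0.05. The share of all genes at that p in this fit is not given here, so the number cannot be set against it. The alternative without control 5, Ntsr2 AKO 4 and Ntsr2 AKO 5, the mice with raised muscle transcripts, was chosen after seeing the data and leaves 1 Ntsr2 AKO mouse, which is assumed to vary like the control mice. It gave a median of 0.16 and a value of 1.56 for Zfp949.

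Of the other 28 genes named by rule, 18 kept their sign under all alternatives and 10 did not, none of which had passed a threshold. The log2 fold change of Zfp955b was -0.030 with edgeR and -0.037 with DESeq2 and ranged from -0.29 to 0.26 over the omissions of 1 mouse. Those omissions gave -0.30 to 0.19 for Zfp953, -0.14 to 0.21 for Zfp931, -0.24 to 0.31 for Zfp934, -0.030 to 0.15 for Zfp935, -0.10 to 0.24 for Zfp930, -0.18 to 0.10 for Snhg5 and -0.45 to 0.63 for Trim43a. Without the 3 mice with raised muscle transcripts, Zfp953 was at -0.18, Zfp931 at -0.25, Zfp956 at -0.10 and Snx14 at -0.040. Snhg5 was at 0.043 with quantile normalization, and Trim43a was at 0.079 with edgeR and 0.077 with DESeq2.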
